A study of Mus musculus with 18 samples.

Results

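The genes described here are 10 mouse chemokines, the CXC chemokines Cxcl1, Cxcl2, Cxcl3, Cxcl5, Cxcl9, Cxcl10, Cxcl11, Cxcl12 and Cxcl16 and the single CX3C chemokine Cx3cl1. They were taken by symbol, and all 10 were found among the 55536 genes of the count table. RNA-seq was done on islets from the pancreas of male NOD.CB17-Prkdcscid/NCrCrl mice aged 17 weeks, a non-obese diabetic strain whose scid mutation, shared by every group, blocks the maturation of T and B cells. The mice were wild type (WT, ZNT8 +/+), heterozygous (Het, ZNT8 +/-) or knockout (KO, ZNT8 -/-) for zinc transporter 8, the product of Slc30a8, which loads zinc into insulin granules. After an overnight rest in culture, islets of each genotype had 24 h without cytokines or with a mix of IFN-γ at 10 pg/ml, IL-1β at 150 pg/ml and TNF-α at 100 pg/ml, and each of these 6 groups had 3 libraries. No label states that a library, or a pair of untreated and treated libraries, came from its own mouse. In the sample titles, untreated and treated libraries of a genotype carry the same numbers, without saying what a number marks. The p-values therefore cover only the spread between these samples, which may be technical. Replicate numbers below are those of the sample descriptions, not of the titles. Both run in the same order within a genotype, but they differ for all WT and KO libraries and for some Het ones. Replicate 3 is thus the library with the highest title number of its genotype and treatment.

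Chemokines are small secreted or membrane-tethered proteins that guide leukocytes through receptors on those cells. Cxcl1, Cxcl2, Cxcl3 and Cxcl5 carry the ELR motif (glutamate, leucine, arginine) ahead of the paired cysteines and draw neutrophils through Cxcr2. Cxcl9, Cxcl10 and Cxcl11 lack it, are classic interferon-induced ligands of Cxcr3 and draw activated T cells, a role for which Cxcl10 is best known in islet inflammation. Cxcl12 is a constitutive ligand of Cxcr4 and Ackr3. Cxcl16 and Cx3cl1 are made as membrane-bound proteins that bind Cxcr6 and Cx3cr1, and Adam10 and Adam17 shed them from the cell surface. IL-1β and TNF-α signal largely through NF-kB, and IFN-γ induces the transcription factor Irf1.

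On GRCm38, 7 of the 10 genes lie on chromosome 5 in 2 clusters. Cxcl5, Cxcl3, Cxcl1 and Cxcl2, in that order and all on the plus strand, lie within 146579 bases (90759360 to 90905938), together with Ppbp, Pf4 and Cxcl15. Cxcl9, Cxcl10 and Cxcl11 lie on the minus strand within 44139 bases (92321347 to 92365485). The annotation (GENCODE M21) classes Cxcl11 as a polymorphic pseudogene, a gene that is intact in some strains and broken in others. Cxcl12 lies on chromosome 6 (117168535 to 117181367, plus strand), Cxcl16 on chromosome 11 (70453983 to 70459984, minus strand) and Cx3cl1 on chromosome 8 (94772009 to 94782427, plus strand). The exons of Cxcl16 share 552 bases with Zmynd15 and those of Cxcl10 share 133 bases with Art3, both on the opposite strand. The sources used here do not give a strand setting for the counting, so those bases cannot be assigned with certainty.

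The promoters of the inducible genes are shown because Cxcl1, Cxcl2 and Cxcl3, which moved together below, also share a stretch of sequence. RefSeq start sites (GRCm38.p6) were given for 7 of the 10 genes (all but Cxcl5, Cxcl11 and Cxcl16), and the 250 bases before each start were searched on both strands. The motifs were GGG and TTCC with any 3 bases between them for NF-kB, GAAA and GAAA with any 2 bases between them for the interferon-stimulated response element (ISRE), TTC and GAA with any 3 bases between them for the gamma-activated site (GAS), and TGANTCA for AP-1. In the windows below, read 5′ to 3′ on the gene's own strand, capitals mark every match. The Cxcl1, Cxcl2 and Cxcl3 windows run from base -120 to -31 and the Cxcl10 window from -220 to -61, counted from the start site.
Cxcl1 (chr5:90891125-90891214, plus strand): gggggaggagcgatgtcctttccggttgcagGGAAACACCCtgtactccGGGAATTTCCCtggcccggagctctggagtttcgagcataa
Cxcl2 (chr5:90903779-90903868, plus strand): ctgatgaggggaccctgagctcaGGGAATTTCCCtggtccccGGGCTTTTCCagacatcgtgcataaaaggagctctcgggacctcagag
Cxcl3 (chr5:90785981-90786070, plus strand): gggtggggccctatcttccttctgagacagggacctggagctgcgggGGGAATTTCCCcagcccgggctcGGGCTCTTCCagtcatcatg
Cxcl10 (chr5:92348950-92349109, minus strand): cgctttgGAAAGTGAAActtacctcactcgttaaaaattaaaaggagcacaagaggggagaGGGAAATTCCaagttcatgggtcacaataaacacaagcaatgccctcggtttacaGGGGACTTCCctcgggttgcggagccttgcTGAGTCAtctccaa
Cxcl1, Cxcl2 and Cxcl3 held the same 11-base run, which matches the NF-kB motif on both strands, at bases -71 to -61, -97 to -87 and -73 to -63. Each also had another NF-kB match within the printed window, at -89 to -80 in Cxcl1, -78 to -69 in Cxcl2 and -50 to -41 in Cxcl3. Cxcl10 had 2 NF-kB matches (-159 to -150 and -104 to -95), 1 ISRE match (-213 to -204) and 1 AP-1 match (-74 to -68). No GAS match was found in any of the 7 promoters, and Cxcl9, Cxcl12 and Cx3cl1 had no match to any of these motifs in the window. Among 32851 RefSeq promoters searched the same way, 4.65% held the NF-kB motif, 2.98% the ISRE, 7.02% the GAS and 6.75% the AP-1 motif. A match describes the letters only and was not tested for binding.

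**Figure D1:**
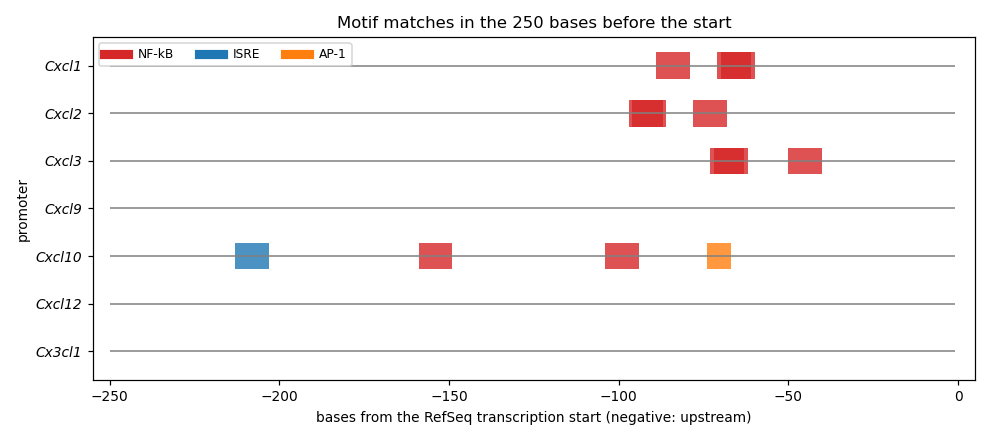
Positions of motif matches in the 250 bases before the RefSeq start of 7 chemokine genes; the x axis is the distance from the start in bases and coloured blocks are matches. Cxcl1, Cxcl2 and Cxcl3 have overlapping NF-kB matches on both strands, drawn darker, and Cxcl10 has NF-kB, ISRE and AP-1 matches.

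The libraries held 22990164 to 29946680 reads assigned to genes, and 17590 genes passed a filter on low counts, among them 9 of the 10 chemokines. Cxcl11 had 0 to 3 reads per library (17 in all 18 libraries) and was not tested; 3 reads, the limit that a count of 0 allows, correspond to 0.0983 to 0.135 CPM (read counts scaled to library size). Cxcl9 passed the filter's CPM minimum in 9 of 9 cytokine libraries but in 2 of 9 untreated ones, so it entered the fit only through the treated groups, in which it is high. Its cytokine values are therefore given as a description, and it is left out of the counts and medians for cytokines. Slc30a8 itself was below WT in the KO libraries by a log2 fold change of -1.23 ± 0.19 untreated and -0.96 ± 0.20 with cytokines. Het islets differed from WT by -0.06 ± 0.19 untreated and -0.02 ± 0.19 with cytokines, neither called, so the level of this gene does not check the Het label. Beta cell markers, led by Ins2 and Ins1, summed to 144000 to 233000 CPM per library. Each change below is a log2 fold change with its SE, fitted by the quasi-likelihood model of edgeR with 1 mean per group, and a gene is called where the p adjusted over all 17590 genes (Benjamini-Hochberg) is below 0.05.

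One untreated library, KO replicate 3, stood apart from the other 17. Its 10 T, B and NK cell markers summed to 20.1 CPM, against 0.404 to 2.18 CPM elsewhere, with 497 Cd4 reads and 41 Cd3e reads, while the B cell gene Ms4a1 had 0 reads in all libraries. These T cell reads stand against the scid background that the labels give to all mice, and their origin was not tested. Its macrophage markers summed to 388 CPM (117 to 194 elsewhere) and its mesenchymal markers to 3610 CPM (468 to 2880 elsewhere). It was also the highest untreated KO library for all 9 tested chemokines. Results that rest on it are given with and without it below.

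**Figure D2:**
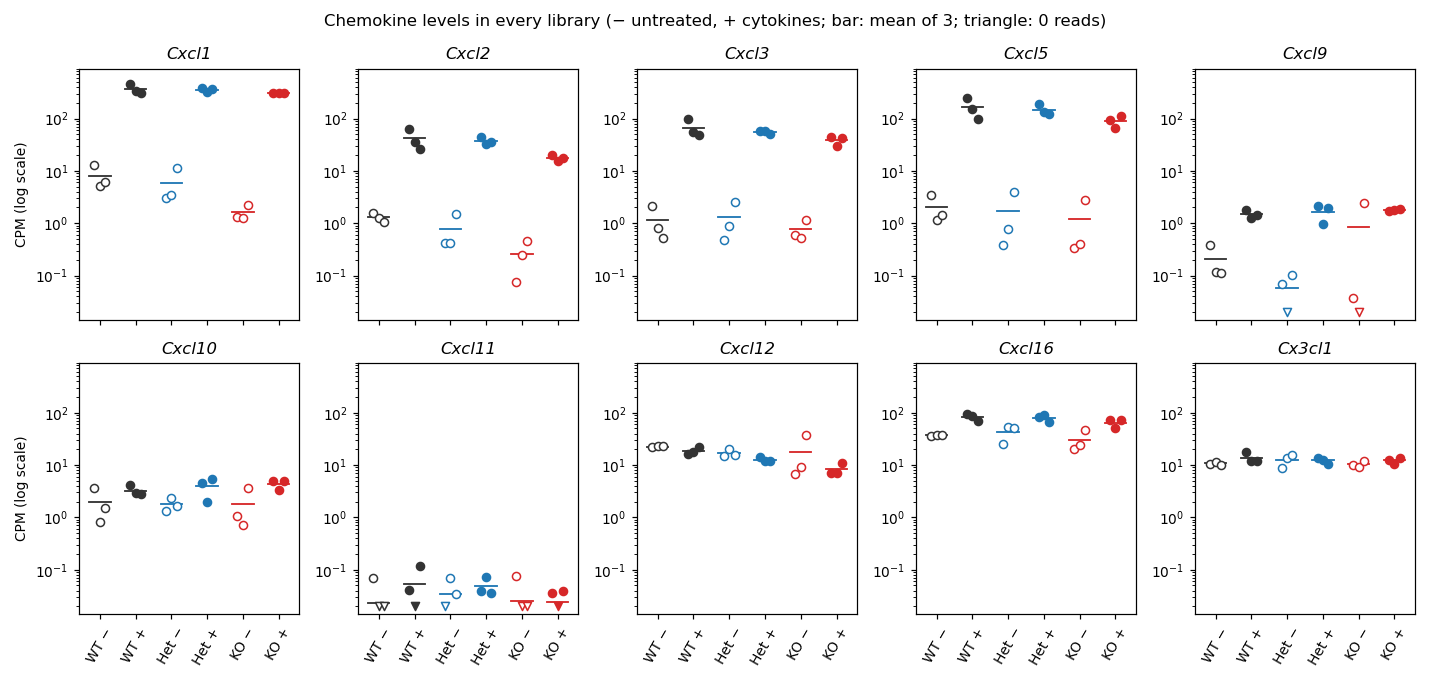
CPM of each chemokine (log scale) in the 18 libraries, by genotype, without (open) and with (filled) cytokines; bars are means of 3 and triangles mark 0 reads. Cxcl1, Cxcl2, Cxcl3 and Cxcl5 separate by treatment in every genotype, and Cxcl16 shifts by a smaller amount. Cx3cl1 lies near the same height in most groups, and the means of Cxcl12 run from 22.4 CPM (untreated WT) to 8.29 CPM (treated KO).

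Cytokines raised all 4 neutrophil-attracting ELR chemokines in islets of every genotype, by 31.5-fold (Cxcl2 in WT) to 189.8-fold (Cxcl1 in KO). Cxcl1 stood at 12.9, 5.24 and 6.09 CPM in the untreated WT libraries and at 456, 337 and 303 CPM with cytokines, a rise of 5.49 ± 0.45 (44.9-fold, adjusted p = 1.50e-06). In Het islets it went from 3.00, 3.43 and 11.3 CPM to 384, 318 and 372 CPM (5.92 ± 0.46), and in KO islets from 1.33, 1.26 and 2.23 CPM to 307, 313 and 312 CPM (7.57 ± 0.53, 189.8-fold). The lowest treated library of Cxcl1, at 303 CPM, was far above its highest untreated one, at 12.9 CPM. Its treated values lay close together across genotypes, while the untreated KO libraries were below every untreated WT and Het library.

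Cxcl2, which encodes the neutrophil attractant also called MIP-2, followed the same course at a lower level. It had 1.59, 1.27 and 1.06 CPM in untreated WT and 62.7, 36.0 and 25.9 CPM in treated WT libraries (4.98 ± 0.42, 31.5-fold). The Het libraries went from 0.41, 0.42 and 1.49 CPM to 44.6, 33.2 and 35.4 CPM (5.60 ± 0.45), and the KO libraries from 0.076, 0.243 and 0.459 CPM, which is 2 to 14 reads, to 20.1, 15.7 and 17.4 CPM (6.02 ± 0.53). All 3 treated KO libraries were below every treated WT and Het library. Of the 50-base stretches of Cxcl2 transcripts, 5.84% also occur in other genes' transcripts, all of them in Cxcl3, so a small part of the reads of this pair may be uncertain.

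Cxcl3, its close relative, rose by 5.83 ± 0.51 in WT, 5.42 ± 0.50 in Het and 5.64 ± 0.54 in KO islets. Its WT libraries went from 2.15, 0.794 and 0.513 CPM to 98.8, 54.4 and 47.4 CPM, its Het libraries from 0.478, 0.874 and 2.53 CPM to 57.4, 58.8 and 50.5 CPM, and its KO libraries from 0.607, 0.528 and 1.15 CPM to 43.9, 30.3 and 43.0 CPM. Cxcl5, an epithelial ELR chemokine, rose by 6.34 ± 0.70 in WT (81.1-fold), 6.42 ± 0.70 in Het (85.5-fold) and 6.15 ± 0.73 in KO islets (71.2-fold). It had 3.43, 1.15 and 1.43 CPM in untreated and 246, 155 and 96.1 CPM in treated WT libraries. In Het islets it went from 0.375, 0.769 and 4.02 CPM to 189, 132 and 121 CPM, and in KO islets from 0.341, 0.406 and 2.82 CPM to 92.2, 66.2 and 112 CPM. For both genes all treated libraries exceeded all untreated ones.

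The ELR chemokines summed to 12.6 ± 6.54 CPM (SD, n = 3) in untreated and 639 ± 202 CPM in treated WT islets, from 9.72 ± 8.41 to 598 ± 68.1 CPM in Het islets, and from 3.81 ± 2.46 to 458 ± 30.4 CPM in KO islets. They made up 5.32% to 21.5% of the summed CPM of the 10 chemokines in untreated libraries and 81.6% to 86.6% in treated ones. These genes were among 1521 of the 17590 tested genes that were called higher in all 3 genotypes, and no other chemokine of the set was. The size of the rise depended on the untreated library that was highest in each genotype. Without KO untreated replicate 3 the rise in KO islets was 7.90 for Cxcl5, 6.78 for Cxcl2, 6.09 for Cxcl3 and 7.90 for Cxcl1. Without Het untreated replicate 3 it was 8.00 for Cxcl5, 6.80 for Cxcl1, 6.49 for Cxcl2 and 6.36 for Cxcl3 in Het islets, and without WT untreated replicate 1 it was 6.99 for Cxcl5 and 6.67 for Cxcl3 in WT islets. All 4 were called higher in each of 42 fits, which cover the 3 cytokine comparisons under the alternative settings and without single libraries.

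**Figure D3:**
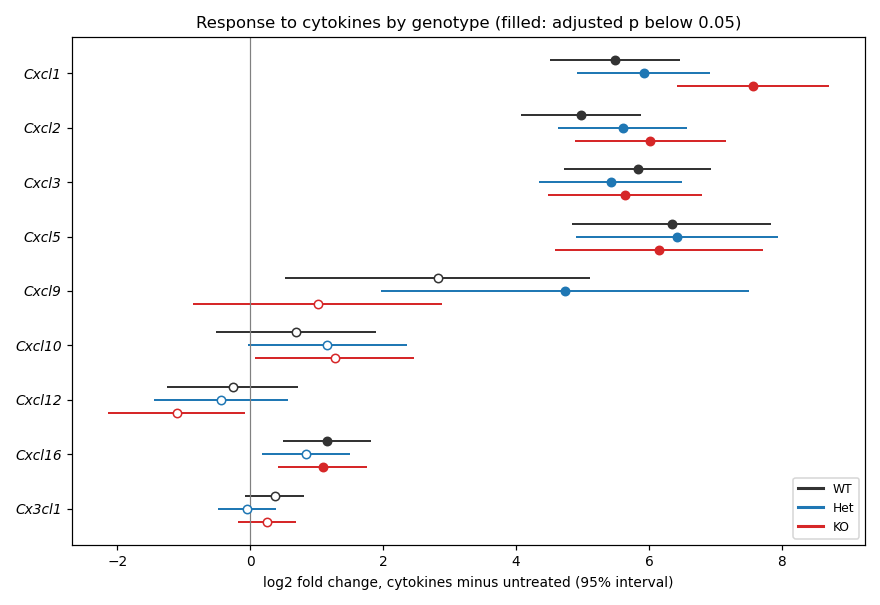
Log2 fold change with cytokines (x axis, 95% interval) of the 9 tested chemokines in WT, Het and KO islets; filled points have an adjusted p below 0.05. The ELR chemokines lie between 4.98 and 7.57, and the intervals of Cxcl9, which is shown as a description only, are wide.

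The interferon-induced Cxcr3 ligands stayed at low levels with cytokines. Cxcl10 had 3.64, 0.83 and 1.54 CPM in untreated and 4.09, 2.88 and 2.82 CPM in treated WT libraries, a change of 0.69 ± 0.56 with a 95% interval of -0.51 to 1.89 (adjusted p = 0.407). In Het islets it went from 1.33, 2.34 and 1.66 CPM to 4.57, 2.01 and 5.36 CPM (1.16 ± 0.56, adjusted p = 0.156), and in KO islets from 1.06, 0.73 and 3.57 CPM to 4.87, 3.41 and 4.88 CPM (1.27 ± 0.56, adjusted p = 0.101). Treated and untreated libraries overlapped in every genotype, and in KO islets the overlap came from replicate 3. Without that library Cxcl10 was called higher in KO islets, at 2.28 (adjusted p = 0.00723). Art3, which shares exon bases with Cxcl10, had group means of 1.48 to 2.29 CPM. Those of Cxcl10 were 1.78 to 2.00 CPM in the untreated groups and 3.26 to 4.38 CPM in the treated ones. The part of Art3 in the Cxcl10 counts was not tested.

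Cxcl9 was measured from few reads, at most 11 in any untreated library other than KO replicate 3, which had 75. It had 0.381, 0.119 and 0.11 CPM in untreated and 1.82, 1.25 and 1.41 CPM in treated WT libraries, and 0.0683, 0 and 0.104 CPM against 2.09, 0.948 and 1.93 CPM in Het libraries. The KO libraries had 0.0379, 0 and 2.46 CPM untreated and 1.69, 1.75 and 1.84 CPM treated. Treated libraries were above untreated ones in WT and Het islets and overlapped in KO islets through untreated replicate 3. The fitted changes, which are no test here, were 2.82 ± 1.07 in WT, 4.74 ± 1.29 in Het and 1.01 ± 0.87 in KO islets, and 6.18 in KO islets without that library.

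Cxcl16, the membrane-bound ligand of Cxcr6, about doubled. It had 36.5, 36.7 and 37.3 CPM in untreated and 93.1, 85.2 and 68.1 CPM in treated WT libraries (1.16 ± 0.31, 2.23-fold, adjusted p = 0.0141). The Het libraries had 24.8, 54.1 and 52.0 CPM untreated and 81.2, 88.6 and 65.1 CPM treated, which missed the threshold (0.84 ± 0.31, adjusted p = 0.0619), and the KO libraries went from 20.6, 24.5 and 46.0 CPM to 72.0, 51.0 and 71.7 CPM (1.09 ± 0.31, adjusted p = 0.0164). The groups did not overlap in any genotype, and neither difference between genotypes in this response passed (Het minus WT -0.31, KO minus WT -0.06, adjusted p = 0.916 and 0.989). The call in WT islets was lost without treated replicate 1 (adjusted p = 0.0514). In KO islets it was lost in a fit on the KO groups alone (adjusted p = 0.0783) and without untreated replicate 1, untreated replicate 2 or treated replicate 1. Zmynd15, the opposite-strand neighbour, had group means of 2.44 to 6.58 CPM, and its part in the Cxcl16 change was not tested.

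Cx3cl1, known as fractalkine, did not pass the test in any genotype. Its 9 untreated libraries ranged from 8.60 to 15.6 CPM and its treated ones from 10.6 to 18.1 CPM. The changes were 0.37 ± 0.21 in WT (95% interval -0.07 to 0.81), -0.04 ± 0.20 in Het (-0.48 to 0.39) and 0.25 ± 0.21 in KO islets (-0.19 to 0.69).

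Cxcl12, which is made mainly by stromal and endothelial cells, was not called with cytokines either. It had 21.9, 22.7 and 22.7 CPM in untreated and 16.3, 17.6 and 22.1 CPM in treated WT libraries (-0.26 ± 0.46), and 15.1, 20.6 and 15.7 CPM against 14.0, 12.0 and 11.9 CPM in Het libraries (-0.44 ± 0.46). In KO islets it had 6.83, 9.05 and 37.3 CPM untreated and 7.02, 6.95 and 10.9 CPM treated (-1.10 ± 0.48, adjusted p = 0.0974), and without untreated replicate 3 the change was 0.07 (adjusted p = 0.853). Without untreated replicate 1 or 2, by contrast, it was called lower in KO islets, so the value rests on which of these 3 libraries are used. Mesenchymal markers fell in the same comparison for 3 of 12 genes in WT, 8 in Het and 1 in KO islets, and their part in the Cxcl12 values was not tested.

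In all, 5 of the 8 tested chemokines other than Cxcl9 were called higher with cytokines in WT islets (Cxcl1, Cxcl2, Cxcl3, Cxcl5, Cxcl16), where 12.5% of all tested genes were. The count was 4 in Het islets (the ELR genes; background 12.7%) and 5 in KO islets (the ELR genes and Cxcl16; background 15.3%), and 6 in KO islets without untreated replicate 3. None was called lower, against 13.1%, 11.7% and 16% of all tested genes, and 25.7%, 24.5% and 31.3% were called in either direction. The median change of these 8 chemokines was 3.07 in WT, 3.29 in Het and 3.46 in KO islets, and that of all tested genes was -0.01, -0.03 and -0.03. In each genotype the chemokine median fell in a gap between the ELR genes and the others, so no chemokine lay near it. In WT islets the closest were Cxcl2 at 4.98 and Cxcl16 at 1.16. The treated and untreated groups did not overlap for 6, 6 and 5 of these 8 chemokines, against 46.5%, 35.1% and 42.6% of all tested genes in either direction. They were the ELR genes and Cxcl16 in every genotype. Cx3cl1 was added in WT islets by a narrow gap (11.4 CPM at most untreated, 11.7 CPM at least treated). In Het islets it was Cxcl12, which was lower with cytokines. Markers of islet cell types moved in the same comparisons: 6 of 10 beta cell markers fell in every genotype (Ucn3 by 3.10 in WT, 2.78 in Het and 3.21 in KO islets on the log2 scale) and 1 rose in KO islets, and 3 of 10 duct markers rose in WT, none in Het and 4 in KO islets (Muc1 by 0.82 in WT islets). Their part in the chemokine changes was not tested.

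Divided by exon length (RPKM, CPM per kilobase of exon), the order of the chemokines changed with treatment. Exon length here joins the exons of all annotated transcripts of a gene. For Cxcl1, Cxcl2, Cxcl3 and Cxcl10 it covers the gene from start to end (1875, 2068, 3498 and 2252 bases). It is thus not the length of a single transcript, and the order between genes depends on it. By CPM, Cxcl3 (66.8 on average) was above Cxcl2 (41.5) in treated WT islets. In untreated WT islets Cxcl16 came first at 12.2 ± 0.137 RPKM, then Cxcl1 (4.30 ± 2.23), Cxcl12 (2.74 ± 0.0591), Cx3cl1 (2.74 ± 0.148), Cxcl5 (1.08 ± 0.667), Cxcl10 (0.890 ± 0.647), Cxcl2 (0.633 ± 0.129), Cxcl3 (0.329 ± 0.250) and Cxcl9 (0.0674 ± 0.051). Neighbours from Cxcl12 to Cx3cl1 and from Cxcl5 to Cxcl3 overlapped in that order. In treated WT islets Cxcl1 led at 195 ± 42.8 RPKM, followed by Cxcl5 (88.9 ± 40.4), Cxcl16 (27.2 ± 4.22), Cxcl2 (20.1 ± 9.20), Cxcl3 (19.1 ± 7.97), Cx3cl1 (3.53 ± 0.938), Cxcl12 (2.28 ± 0.374), Cxcl10 (1.45 ± 0.319) and Cxcl9 (0.495 ± 0.0969). There only Cxcl16 with Cxcl2 and Cxcl2 with Cxcl3 overlapped. Cxcl1, Cxcl5 and Cxcl16 also held the top 3 places in treated Het islets (191, 79.0 and 25.9 RPKM) and treated KO islets (166, 48.5 and 21.5 RPKM), and Cxcl16 came first in both untreated groups (14.4 and 10.0 RPKM). Cxcl11 was last in all 6 groups, at 0.014 RPKM or less.

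KO islets had lower Cxcl1 than WT islets without cytokines and lower Cxcl2 with them, and no other chemokine was called between these genotypes. Without cytokines Cxcl1 was lower in KO islets by a log2 fold change of -2.31 ± 0.53 (95% interval -3.46 to -1.16, adjusted p = 0.0370), with 1.60 CPM on average against 8.07 CPM in WT. Cxcl1 was the single chemokine called of 9, where 2.94% of all tested genes were called (2.4% lower and 0.534% higher). Cxcl2 had a similar estimate (-2.27 ± 0.68, adjusted p = 0.0933) that did not pass. For both genes all 3 untreated KO libraries were below all 3 untreated WT libraries, and 2 of 9 chemokines had such separate groups, against 25.7% of all tested genes. Cxcl3 (-0.59) and Cxcl5 (-0.69) did not pass, and their WT and KO libraries overlapped.

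With cytokines the level of Cxcl2 in KO islets differed from WT by -1.23 ± 0.33 (95% interval -1.94 to -0.51, adjusted p = 0.0483), with 17.7 CPM on average against 41.5 CPM. It was again the single chemokine called of 9, beside 5.33% of all tested genes called (3.8% lower and 1.52% higher). The remaining ELR estimates were -0.23 for Cxcl1 (adjusted p = 0.741), -0.77 for Cxcl3 (0.227) and -0.87 for Cxcl5 (0.312). Cxcl12 was at 18.6 CPM on average in WT and 8.29 CPM in KO islets (-1.17 ± 0.48, adjusted p = 0.159), with no overlap between the libraries. Cxcl2, Cxcl3 and Cxcl12 were the 3 chemokines with separate groups, against 30.5% of all tested genes.

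Both calls were close to the threshold. That of Cxcl1 in untreated islets was lost without any 1 of 5 of the 6 libraries and stayed only without WT replicate 2; its adjusted p was 0.0656 without KO replicate 3 and 0.0839 with no low-count filter. That of Cxcl2 in treated islets was lost without any 1 of 5 of the 6 libraries and in 5 alternative fits (adjusted p 0.0501 to 0.132), although its direction held in all of them. Cxcl12 in untreated islets, not called with all libraries (-0.33, adjusted p = 0.764), was called lower in KO than in WT without KO replicate 3 (-1.50, adjusted p = 0.0112). Acinar markers were lower in KO than in WT islets for 11 of 11 tested genes in both treatments (summed 1430 to 2220 against 7410 to 7700 CPM untreated, and 674 to 1610 against 5250 to 9910 CPM with cytokines). Endothelial markers were lower for 2 of 11 genes untreated and 4 of 11 with cytokines (summed 161 to 286 against 366 to 566 CPM there), and duct markers for 4 of 10 in both. The part of these cells in the chemokine differences was not tested, and in whole islets fewer cells of a type cannot be told apart from less RNA per cell.

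**Figure D4:**
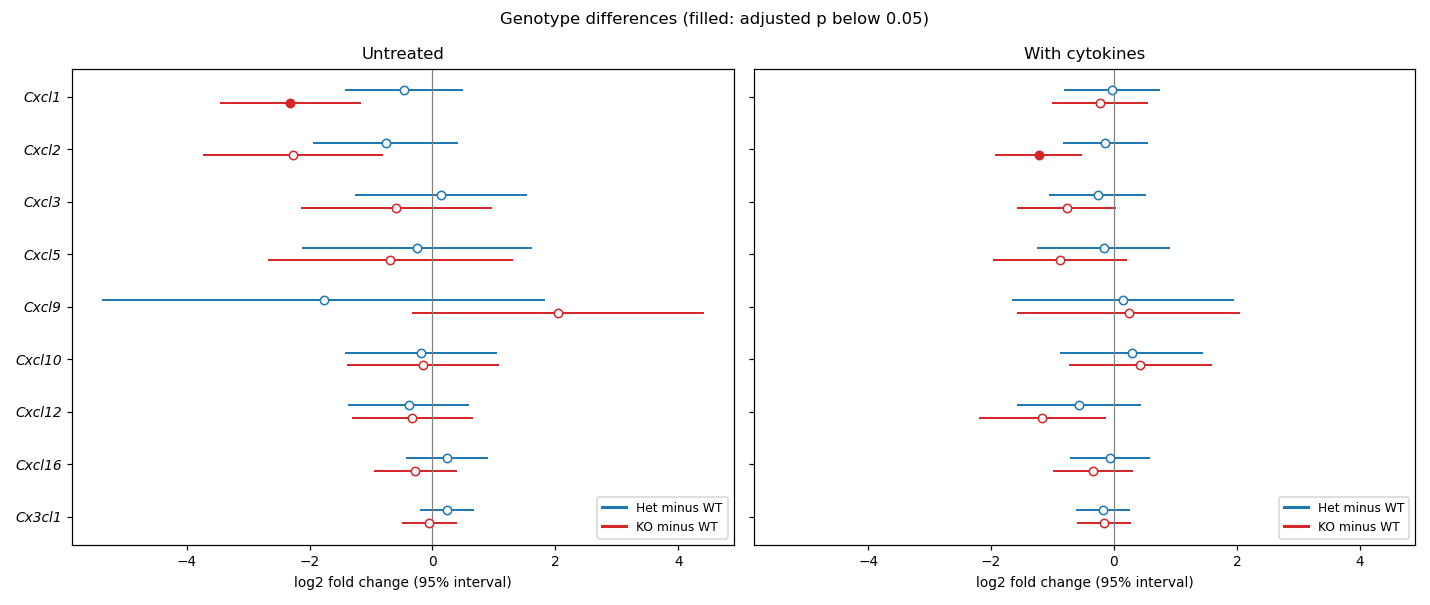
Log2 fold change between genotypes (x axis, 95% interval) of the 9 tested chemokines, Het minus WT and KO minus WT, in untreated islets and with cytokines; filled points have an adjusted p below 0.05. The filled points are Cxcl1 untreated (-2.31) and Cxcl2 with cytokines (-1.23), both in KO minus WT.

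No chemokine was called between Het and WT islets, in either treatment, where 0.00569% (untreated) and 0% (cytokines) of all tested genes were called. The estimates for the ELR genes lay between -0.76 and 0.14 untreated and between -0.27 and -0.03 with cytokines, and none of the 9 chemokines had an unadjusted p below 0.05 in either, and DESeq2 and limma voom also called 0. Between KO and Het islets none was called either, where 0% of all tested genes were called untreated and 0.00569% with cytokines. An unadjusted p below 0.05 was reached by 2 chemokines untreated and 1 with cytokines; DESeq2 called 1 untreated (Cxcl1), and limma voom 1 in each treatment. Untreated Cxcl1 was -1.86 ± 0.55 there (unadjusted p = 0.00470, adjusted p = 0.190) with no overlap between the libraries, and treated Cxcl2 was -1.09 ± 0.33 (unadjusted p = 0.00554, adjusted p = 0.431). With cytokines, 5 of the 9 chemokines had KO libraries below all Het libraries (all 4 ELR genes and Cxcl12), against 14.2% of tested genes with groups apart in either direction. The 4 ELR genes went up and down together within groups, as given below, so they do not count as separate observations. For Cxcl1 the gap was narrow, 313 CPM at most in KO and 318 CPM at least in Het islets (-0.20, adjusted p = 0.918). Untreated Cxcl9 was 3.81 higher in KO than in Het islets (adjusted p = 0.241), and -1.36 without KO replicate 3.

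No chemokine passed the test for a difference between genotypes in the size of its cytokine response. For Cxcl1 the response was larger in KO than in WT islets by 2.08 ± 0.65 (95% interval 0.68 to 3.48, unadjusted p = 0.00688, adjusted p = 0.480) and larger than in Het islets by 1.65 ± 0.66 (adjusted p = 0.839). Treated WT, Het and KO islets averaged 365, 358 and 311 CPM, and the untreated ones 8.07, 5.92 and 1.60 CPM. For Cxcl2 the KO minus WT difference was 1.04 with an interval of -0.64 to 2.72, and for Cxcl3 and Cxcl5 it was -0.19 in both, with intervals of -1.98 to 1.61 and -2.50 to 2.13. Of all tested genes, 0.0114% were called in this interaction, and 0% in the Het minus WT and KO minus Het interactions; 0, 1 and 2 chemokines had an unadjusted p below 0.05 in Het minus WT, KO minus WT and KO minus Het, and DESeq2 and limma voom called 0 in each.

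Within groups, the ELR chemokines went up and down together from library to library. Over the 18 libraries, deviations of log2 CPM from the group mean correlated at 0.913 between Cxcl1 and Cxcl3, 0.898 between Cxcl1 and Cxcl5 and 0.886 between Cxcl2 and Cxcl5, and without KO untreated replicate 3 at 0.904, 0.937 and 0.851. WT untreated replicate 1 and Het untreated replicate 3 were the highest of their groups for all 4 ELR genes, as KO replicate 3 was of its own. The same WT and Het libraries had the highest sums of the 11 neutrophil markers in their groups (55.7 and 25.6 CPM, against 1.62 to 13.9 CPM in the other untreated libraries). Those sums came mostly from S100a9 and S100a8, which also rose with cytokines in every genotype (S100a8 by 5.44 ± 0.53 in WT islets). Ly6g, Elane and Mpo had 2, 1 and 10 reads in all 18 libraries together. Of the other tested markers, Camp was called higher with cytokines in WT, Het and KO islets (3.73, 2.63 and 4.76). Mmp8 was called higher in WT and Het islets (4.18 and 3.33) but not in KO islets, and Csf3r was called lower in KO islets only (-1.65). These genes were low, at 0.249 (Camp), 0.651 (Mmp8) and 0.483 CPM (Csf3r) on average over all libraries. Cxcl9 and Cxcl12 deviated together at 0.796 with all libraries and at -0.287 without KO untreated replicate 3. Cxcl16 and Cx3cl1 did so at 0.794, and at 0.82 without it. These values are descriptions over libraries that share the same 6 group means and total counts.

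**Figure D5:**
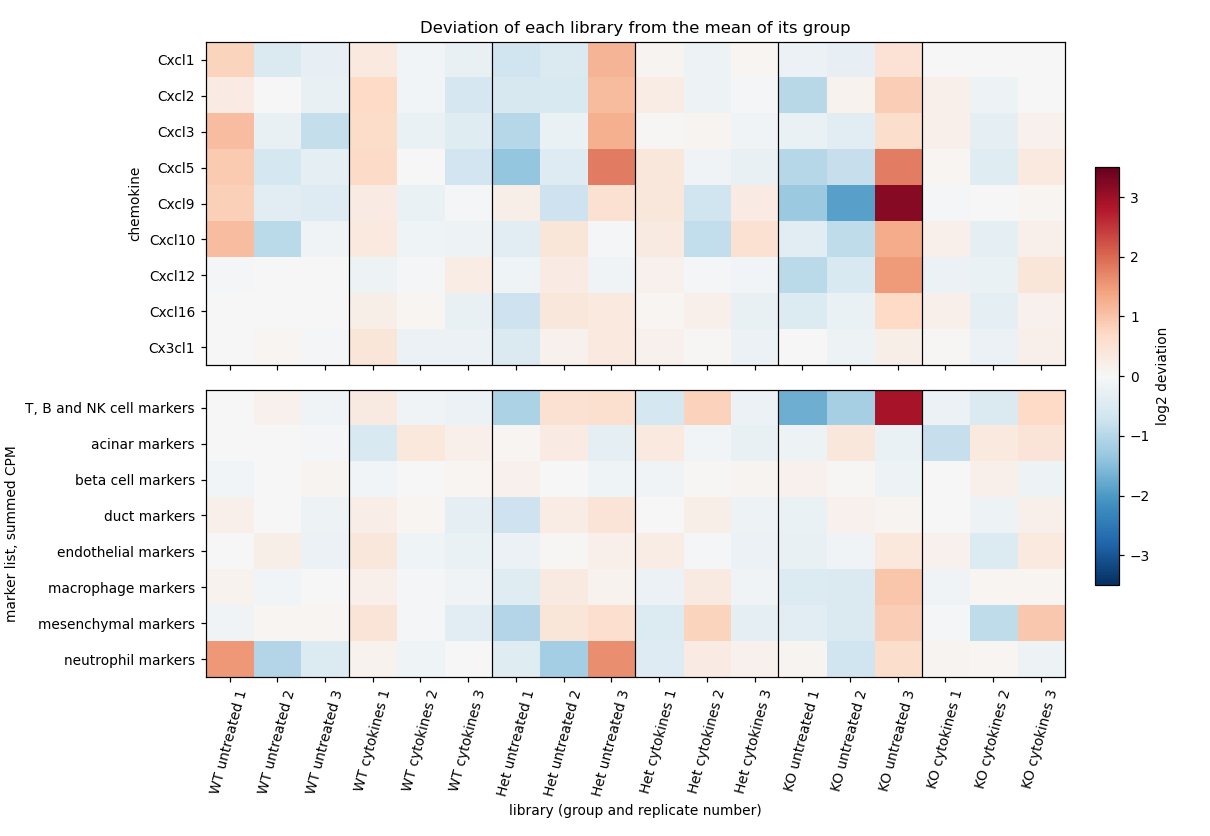
Log2 deviation of each library (columns, by group and replicate number) from the mean of its group, for the 9 tested chemokines and for the summed CPM of 8 lists of cell type markers. KO untreated replicate 3 is high for Cxcl5, Cxcl9, Cxcl10, Cxcl12 and the T, B and NK cell, macrophage and mesenchymal markers. It lies above its group mean by less for the other tested chemokines. WT untreated 1 and Het untreated 3 are high for the ELR chemokines and the neutrophil markers.

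The genes whose log2 CPM followed a chemokine most closely over the 18 libraries were named by Pearson's r over all 6 groups. Such an r includes the difference between untreated and treated libraries, which the 1521 genes called higher in all genotypes also have. The genes named are the highest of all those tested, so the values are a description, and shared regulation was not tested. For Cxcl1 they were Cebpd (0.997), a transcription factor, Lcn2 (0.996), the iron-scavenging acute phase protein lipocalin 2, and Bcl3 (0.995), an atypical IkB protein. Cxcl10 was followed by the interferon-inducible genes Gbp2 (0.929), Tgtp2 (0.920) and Tap1 (0.904), and Cxcl16 by Tbc1d2b (0.981), Lima1 (0.975) and Rnf19b (0.975). For Cx3cl1 the closest were Idi1 (0.916) and Fads2 (0.899), enzymes of lipid synthesis, and Prrx1 (0.895). Those of Cxcl12 were Gfi1 (0.896), the T cell receptor gene Trbc2 (0.879) and Acsf2 (0.875), and without KO untreated replicate 3 they were Tinag (0.968), Ggt1 (0.932) and Hspb1 (0.931) instead. Without that library the closest to Cxcl10 were Parp9 (0.935), Irgm1 (0.931) and Gbp2 (0.927), and those to Cxcl16 were Cyba (0.983), Plaur (0.982) and Tbc1d2b (0.981). Gypc (0.903) then took the place of Prrx1 for Cx3cl1, and Cebpd, Lcn2 and Bcl3 were again the closest to Cxcl1.

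Of 11 receptors listed for these chemokines 6 were tested, and none rose with cytokines. Cxcr4, the receptor of Cxcl12, stood at 5.43 to 7.77 CPM on average over the groups, and Ackr3, its scavenger receptor, at 2.21 to 5.76 CPM. Cx3cr1, the fractalkine receptor of macrophages, fell with cytokines in Het (-1.77 ± 0.42) and KO islets (-1.31 ± 0.38) and was -1.02 ± 0.41 in WT islets, which was not called. Of the 12 macrophage markers none was called with cytokines. Over all 18 libraries together, Cxcr1 had 1 read, Cxcr2 9 reads and Cxcr3 24 reads, and Cxcr6 had 162, of which 118 were in KO untreated replicate 3; these 4 receptors were singled out after their values were seen.

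Of 6 other CXC ligands 5 were tested, and with cytokines 1 rose in WT islets and 1 fell in Het and in KO islets. Cxcl15, which lies in the same cluster, had 0 reads in all libraries. Pf4, another neighbour there and a product of platelets and macrophages, rose in WT islets (2.72 ± 0.72; 2.67 ± 0.458 to 17.8 ± 5.71 CPM), and its changes of 1.29 in Het and 0.78 in KO islets were not called. Cxcl14, a constitutive epithelial chemokine, fell in Het (-1.33 ± 0.41) and KO islets (-1.14 ± 0.41), and its change in WT islets was -0.81 ± 0.41. Cxcl17, a mucosal chemokine, differed between KO and WT islets, by -1.93 ± 0.50 untreated and -1.86 ± 0.44 with cytokines, while its values with cytokines (1.13 ± 0.41 in WT, 0.98 ± 0.43 in Het, and 0.897 against 0.386 CPM on average in KO islets) were not called. None of the 3 interactions passed for Pf4 (lowest adjusted p = 0.777), Cxcl14 (0.892) or Cx3cr1 (0.881), so a difference between genotypes in these responses was not shown.

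Of 7 enzymes that shed or cleave chemokines, 5 rose and 1 fell with cytokines in each genotype. Mmp9, a secreted protease that trims ELR chemokines, rose by 3.03 ± 0.77 in WT, 2.23 ± 0.74 in Het and 2.15 ± 0.73 in KO islets. Ctsl, a lysosomal protease, rose by 1.45 ± 0.16, 1.75 ± 0.16 and 2.27 ± 0.16. Adam10, a sheddase of Cxcl16 and Cx3cl1, rose by 0.44 ± 0.08, 0.43 ± 0.08 and 0.69 ± 0.08. Dpp4, the peptidase that inactivates Cxcl9, Cxcl10 and Cxcl12 by clipping their ends, fell, with changes of -1.52 ± 0.14, -1.28 ± 0.14 and -1.44 ± 0.14.

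Of 20 genes of NF-kB, IL-1 and TNF signalling, 17 rose with cytokines in WT, 15 in Het and 15 in KO islets, and none fell, where 12.5%, 12.7% and 15.3% of all tested genes rose. Examples are Zc3h12a, an RNase that degrades inflammatory mRNAs (4.24 ± 0.29, 4.36 ± 0.29 and 4.85 ± 0.30), the NF-kB inhibitor Nfkbia (2.24 ± 0.14, 2.37 ± 0.15 and 2.71 ± 0.15) and the deubiquitinase Tnfaip3 (2.23 ± 0.28, 2.24 ± 0.28 and 2.57 ± 0.29). Their median changes were 0.86, 0.71 and 0.82. Of 13 tested genes of interferon-gamma signalling, 7, 7 and 8 rose, the others did not pass and none fell, with medians of 0.34, 0.39 and 0.39. The feedback inhibitor Socs1 rose by 2.48 ± 0.36, 2.12 ± 0.34 and 1.96 ± 0.34, the receptor subunit Ifngr2 by 1.27 ± 0.10, 1.23 ± 0.10 and 1.52 ± 0.10, the inhibitor Socs3 by 1.26 ± 0.16, 1.37 ± 0.16 and 1.54 ± 0.16, and Irf1 by 0.63 ± 0.09, 0.84 ± 0.09 and 0.83 ± 0.09. Between KO and WT islets, 2 NF-kB genes were lower untreated (Nfkbiz -0.48, Rela -0.38) and 1 with cytokines (Rela -0.41), and of the interferon list only Ifngr2 was lower untreated (-0.39); Nfkbiz and Rela were named after their values were seen.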

How the data were processed

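RNA-seq libraries of cultured mouse islets (6 groups of 3) were read as raw counts per gene that the authors deposited in a full table of 55536 genes; a second deposited count table holds a subset. FastQC 0.11.7, cutadapt 1.16, STAR 2.5.2a, featureCounts 1.6.2, DESeq2 1.30.0 and GRCm38 are named, without roles, per the submitters' processing notes. Groups came from the labels.

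From the counts, CPM, RPKM (exon union of GENCODE M21) and fold changes were computed with edgeR 4.0.16 in R 4.3.3; DESeq2 1.42.0 and limma 3.58.1 served the alternatives, and matplotlib 3.10.9 under Python 3.11.15 drew the figures. Genes passed filterByExpr (minimum count 10), libraries were scaled by TMM, and a robust quasi-likelihood model with 1 mean per group and 12 residual degrees of freedom gave 12 comparisons, adjusted by Benjamini-Hochberg over 17590 genes. Log2 CPM used a prior count of 2. The fit was tested on simulated data.

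All 10 chemokines are named in each comparison, and other genes by list (up to 4 called members with the largest change in WT islets, and ligands and receptors with a mean of at least 1 CPM). The chemokines and lists were chosen with earlier results of these data known. Alternatives were RLE scaling, no filter, the genes of the authors' filtered table, only the groups compared, DESeq2 and voom with quality weights. Further ones were a replicate block across genotypes, a replicate block by genotype (cytokine comparisons and interactions only) and leaving out each library. Leaving KO untreated replicate 3 out of the correlations, and Cxcl9 out of the cytokine counts, was chosen after seeing the data.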

Additional observations from a re-analysis of the deposited data

How the results depend on the processing

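Counts of called chemokines for cytokines, without Cxcl9, ran from 4 to 5 in WT, 4 to 5 in Het and 4 to 6 in KO islets over 14 fits each, and those for Het against WT stayed at 0. The count for untreated KO against WT (1) became 0 with no low-count filter and 2 with only the groups compared, DESeq2 or voom; for treated KO against WT (1) it became 0 with RLE, no filter, DESeq2 and the replicate block and 4 with voom, which called 23.1% of all tested genes there. Untreated KO against Het (0) became 1 with DESeq2 and voom, and treated KO against Het 1 with voom. Leaving out single libraries gave 0 to 1 for KO against WT in either treatment and for untreated KO against Het.

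Directions turned in 1 other setting, voom, with -1.56 for Cxcl9 in untreated KO against WT. Without single libraries the range crossed 0 for Cx3cl1 with cytokines in Het (-0.26 to 0.14), Cxcl12 with cytokines in KO (-1.47 to 0.0654), treated Cx3cl1 in KO against WT (-0.27 to 0.0731), untreated Cxcl9 in KO against Het (-1.36 to 4.48) and the Cxcl9 response in KO minus Het (-4.39 to 1.45). In untreated KO against WT it did so for Cxcl3 (-1.04 to 0.26), Cxcl9 (-3.13 to 2.87), Cxcl10 (-1.17 to 0.61), Cxcl12 (-1.50 to 0.0709) and Cx3cl1 (-0.17 to 0.0402). The causes were not tested. DESeq2 gave Cxcl9 no adjusted p in 7 comparisons, which are left out.

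Untreated and treated libraries of a genotype share replicate numbers in the labels, which do not say what a number marks. Same-numbered libraries deviated together (r over 0.1) in 6 of 9 pairs, from -0.219 to 0.392 (mean 0.148), and differently numbered ones in 3 of 18 (mean -0.0759); since not every pair passed, the numbers were not taken as pairs, and whether they are was not settled. With the number as a block across all genotypes, treated Cxcl2 in KO against WT was -1.19 (adjusted p = 0.0624), the one chemokine call that changed under this block. No label ties a number across genotypes. The block used the replicate numbers of the descriptions, so it joined libraries with unlike title numbers, such as HE_1 (Het), KO_2 and WT_2. With the number as a block within each genotype, the counts for cytokines without Cxcl9 were 5 in WT, 4 in Het and 5 in KO islets. Cxcl9, Cxcl11 and the untreated levels of Cxcl2 rest on few reads, which limits their precision.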
